A study of Callithrix jacchus with 5 samples.

Results

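One library of marmoset induced pluripotent stem (iPS) cells was compared with 3 libraries of embryonic stem (ES) cells across all genes, to ask which genes lay outside the range of the ES lines. The 4 libraries were chosen by their labels out of 5 in the series, and all are of marmoset origin (the New World monkey Callithrix jacchus). The iPS library is titled RNAiPS_1 and, per the series title, represents fibroblasts reprogrammed with RNA. The ES libraries come from lines named No40, DSY127 and No20, whose titles carry P63, P17 and P45. The remaining library, fibroblasts titled E01F with P1, formed a group of its own in the model and gives a reference level. The labels give no genotype, sex, age, donor or culture medium, and do not say from which fibroblasts the iPS cells came, at what passage they were taken or whether they were 1 clone. Values in the text follow the order No40, DSY127 and No20 for the ES lines.

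Pluripotent stem cells divide indefinitely and can form every tissue of the body, a state held by a small network of transcription factors built around POU5F1 (also called OCT4), SOX2 and NANOG. Reprogramming imposes this network on a somatic cell, silences the somatic programme and turns a spindle-shaped mesenchymal cell into an epithelial colony. Delivery of the factors as RNA leaves no vector in the genome, and the introduced messages decay within days. ES cells of the same species are the usual standard for an iPS line, although ES lines differ among themselves in sex, genetic background and culture history.

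The iPS library held 5746449 counted reads and the ES libraries 46523012, 34111715 and 40825547, so low genes were measured less precisely in the iPS cells. Levels are given as CPM, the counts of a gene scaled to a common library total with TMM factors. A CPM value can be compared between libraries but not between genes, since it is not divided by gene length. In the iPS library 3 counts correspond to 0.507 CPM, against 0.0610 to 0.0834 CPM in the ES libraries. A count was recorded for 93.3% of the 17462 genes tested in the iPS library and for 98.2% to 98.8% in the ES libraries. In bulk RNA, fewer cells of a type and less RNA per cell cannot be told apart. A gene is called outside the ES range where its iPS level was above the highest or below the lowest of the 3 ES lines, and clearly outside where the exact 95% Poisson interval of the iPS count also excluded the nearest ES value and the ratio to it was at least 2. A gene with no count in the iPS library passes that ratio by definition, and 32 of the 57 such genes clearly below had a bound under 2-fold against 3 counts. Intervals printed for a ratio to an ES line are exact conditional binomial ones that add the counting error of that line. They include 1 for 55 of the genes clearly above and 14 of those clearly below. All such intervals cover counting error only.

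Of the 17462 genes tested, 4633 (26.5%) lay above all 3 ES lines and 5507 (31.5%) below all 3. Clearly above were 1129 genes (6.47%) and clearly below 462 (2.65%). The number below depends on depth. In the iPS library 1173 tested genes had 0 counts, and each counts as below wherever every ES line had a count. With all libraries thinned to the iPS total, 3954 of 14573 genes tested lay above and 3874 below. A model-based test was stricter: edgeR's quasi-likelihood test, with Benjamini-Hochberg adjustment over all genes, called 19 genes higher (0.109%) and 0 lower (0%) at an adjusted p under 0.05. Its log2 fold change is the fitted iPS level over that of the ES lines. At an adjusted p under 0.05 DESeq2 called 349 genes higher and 67 lower. At an unadjusted p under 0.05 the edgeR test listed 971 genes higher and 547 lower. The test takes its spread from the ES lines and assumes that the lone iPS library would vary as they do. An exact permutation of 1 library against 3 cannot go below a one-sided p of 0.25, so the range is a description of these libraries. All 19 calls were lost when line No40 was left out and 2 ES libraries remained, where edgeR called 0 genes in either direction, with 863 higher and 560 lower at an unadjusted p under 0.05. They were kept when either other ES line was left out and when all libraries were thinned to the iPS total.

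**Figure D1:**
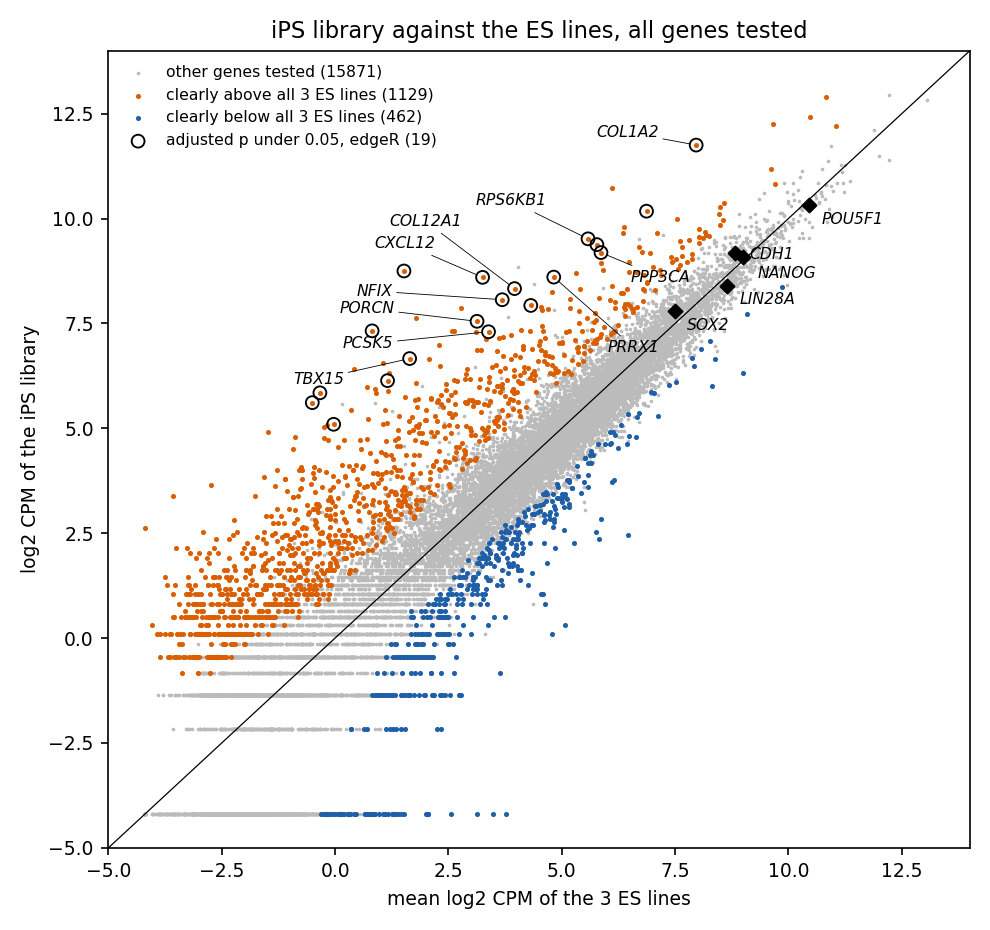
Each point is 1 of the 17462 genes tested, with the mean log2 CPM of the 3 ES lines on the x axis and the log2 CPM of the iPS library on the y axis, and the line marks equal levels. Orange and blue points are the 1129 genes clearly above and the 462 clearly below all 3 ES lines, circles are the 19 genes called by edgeR, and diamonds are CDH1 and 4 genes of the pluripotent state, which lie close to the line.

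The pluripotent identity of the iPS library was checked first, with genes of the core network. POU5F1 stood at 1286 CPM in the iPS library and 1409.9, 1733 and 1132 CPM in the 3 ES lines. NANOG, a homeobox partner of POU5F1, stood at 539 CPM in the iPS cells against 462, 562 and 523 CPM in the 3 ES lines. For SOX2 the iPS library had 221 CPM against 244, 163 and 146 CPM. In each case the iPS value lay within the spread of the ES lines, and in the fibroblast library none of the 3 genes exceeded 1.64 CPM. LIN28A, a translational regulator of embryonic cells, was at 339 CPM in the iPS cells and 559, 357 and 317 CPM in the 3 ES lines. DNMT3B, a de novo DNA methyltransferase abundant in primate pluripotent cells, was at 1837 CPM (iPS) against 2985, 1985 and 711 CPM (3 ES lines). All 7 measured markers of pluripotent cells lay within the ES range. Of 15 tested members of a broader core pluripotency list, 13 lay within it, 1 above and 1 below, with 0 clearly outside, and the median log2 fold change was -0.03, against -0.11 over all genes tested. In the files POU5F1 spans chromosome 4, 31626192 to 31822630, far more than the gene is known to cover, and POU5F1 has pseudogene copies, so its absolute level is uncertain.

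Epithelial genes likewise lay largely within the ES range. CDH1, the E-cadherin of epithelial junctions, was at 579 CPM in the iPS library, where the ES lines had 817, 528 and 212 CPM. EPCAM, an epithelial adhesion molecule of pluripotent cells, was at 625 CPM against 433, 889.8 and 525 CPM. Among 16 tested epithelial genes, 10 lay within the ES range, 3 above and 3 below, and 0 were clearly outside. Of the factors used in classical reprogramming, KLF4 was at 255 CPM in the iPS library and 265, 175 and 18 CPM in the 3 ES lines. MYC, the growth-promoting member of that set, was at 90.1 CPM in the iPS library and 339, 225 and 183 CPM in the 3 ES lines, which is 2.03-fold below the lowest ES line (95% interval 1.86 to 2.22), and under upper-quartile scaling it no longer reached a ratio of 2. GLIS1, a zinc finger factor that can aid reprogramming, stood 4.43-fold above the highest ES line, at 4.06 CPM against 0.691, 0.612 and 0.915 CPM.

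Of the 19 genes called higher, 10 have a symbol, namely CXCL12, TBX15, PORCN, COL12A1, NFIX, RPS6KB1, PCSK5, COL1A2, PRRX1 and PPP3CA. They include matrix genes, transcription factors of connective tissue and signalling genes. For each, the iPS level was far above all 3 ES lines. CXCL12 (chromosome 12, 32328820 to 32341234), a chemokine that guides cells bearing the receptor CXCR4, was at 388 CPM in the iPS cells against 10.9, 14.1 and 5.53 CPM in the 3 ES lines. Its log2 fold change was 5.25 ± 0.50 (SE) with an adjusted p of 0.0366 in edgeR, and the fibroblast library had only 5.36 CPM. The iPS value was 27.5 times the highest ES line (95% interval 25 to 30.3).

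The collagen family held 2 of the calls. COL1A2 (chromosome 8, 53082558 to 53120083), which encodes the second chain of the main collagen of skin, bone and tendon, was at 3447 CPM (iPS) against 263, 259 and 228 CPM (3 ES lines). This gene rose by a log2 fold change of 3.78 ± 0.27 (SE), adjusted p 0.0205 in edgeR, while the fibroblast library reached 19646 CPM. COL12A1 (chromosome 4, 73320743 to 73465719), a collagen that decorates the surface of fibrils, was at 322 CPM in the iPS library, where the ES lines had 14.5, 15.4 and 16.7 CPM. The change was 4.37 ± 0.29 (SE) on the log2 scale (adjusted p 0.0205, edgeR). For both collagens the 3 ES lines agreed closely, and the iPS value lay between the ES band and the fibroblast level.

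The calls included 3 transcription factors. PRRX1 (chromosome 18, 35809565 to 35884257), a homeobox factor of limb and craniofacial mesenchyme, was at 389 CPM in the iPS library and 31, 22 and 33 CPM in the 3 ES lines, and the fibroblast library had 174 CPM, less than the iPS library. It rose by 3.76 ± 0.34 (SE) on the log2 scale (adjusted p 0.0349, edgeR). TBX15 (chromosome 7, 155107891 to 155224427), a T-box factor of skeletal mesenchyme and fat, was at 101 CPM in the iPS cells against 2.15, 3.23 and 4.16 CPM in the 3 ES lines, near the fibroblast level of 86.2 CPM. The log2 fold change was 4.99 ± 0.44 (SE) with an adjusted p of 0.0341 in edgeR. NFIX (chromosome 22, 12238050 to 12314921), a nuclear factor I protein involved in muscle and brain development, was at 268 CPM (iPS) against 11.6, 9.34 and 19.4 CPM (3 ES lines). With 154 CPM in the fibroblasts, this gene too was highest in the iPS library, and its change was 4.31 ± 0.44 (SE) (log2, adjusted p 0.0367, edgeR).

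The other 4 named calls act in signalling and secretion. PORCN (chromosome X, 47116194 to 47129261), the acyltransferase that lipid-modifies WNT proteins before secretion, was at 187 CPM against 9.51, 11 and 6.31 CPM. It rose by 4.39 ± 0.40 (SE) on the log2 scale (adjusted p 0.0349, edgeR). The kinase gene RPS6KB1 (chromosome 5, 84613469 to 84672206), which acts on ribosomal protein S6 downstream of mTOR, was at 732 CPM in the iPS library, where the ES lines had 41.7, 52.3 and 50 CPM, a change of 3.93 ± 0.30 (SE) (adjusted p 0.0238, edgeR). The fibroblast library lay within the ES range or close to it for both, at 10.7 CPM of PORCN and 50.1 CPM of RPS6KB1. PCSK5 (chromosome 1, 92524771 to 92837251), a protease that activates secreted precursors, was at 158 CPM in the iPS library and 11.2, 13.2 and 7.59 CPM in the 3 ES lines, and PPP3CA (chromosome 3, 92356194 to 92673364), the catalytic subunit of calcineurin, was at 584 CPM in the iPS cells against 54.8, 51.1 and 70.6 CPM in the 3 ES lines. Their log2 changes were 3.89 ± 0.40 (SE) and 3.31 ± 0.32 (SE), with adjusted p-values of 0.0367 and 0.0366 in edgeR. The other 9 calls carry identifiers without a symbol. ENSCJAG00000018981 led all calls, at 431 CPM (iPS) against 3.07, 1.75 and 4.12 CPM (3 ES lines), and rose by 7.17 ± 0.49 (SE) (log2, adjusted p 0.0205, edgeR). The fibroblast library lay above all 3 ES lines for 12 of the 19 called genes (63.2%), against 35.4% of all genes tested.

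Beyond the calls, the 15 named genes with the largest ratio above the ES range at 5 CPM or more were led by genes that the ES lines barely expressed. HP, which encodes the haemoglobin-binding plasma protein haptoglobin, had 36 counts in the iPS library (6.09 CPM) and 0 in each ES library, which is at least 72.9-fold higher when each ES library is set to 3 counts. OGN, a small proteoglycan of bone and connective tissue, was at 12.5 CPM in the iPS library, where the ES lines had 0.183, 0.0278 and 0.114 CPM, 68.4 times the highest ES line (95% interval 34.2 to 155). ASPN, a related proteoglycan, was at 84.9 CPM in the iPS library and 1.73, 0.222 and 4.87 CPM in the 3 ES lines. The fibroblast library had 1.62 CPM of OGN and 56.2 CPM of ASPN, less than the iPS library in both cases.

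Other genes selected by ratio have varied roles, and their distance from the ES lines is what selected them. PAX3, a paired-box factor of neural crest and muscle precursors, was at 30.1 CPM in the iPS cells against 0.183, 0.25 and 0.572 CPM in the 3 ES lines, 52.6 times the highest ES line, with an adjusted p of 0.052 in edgeR. TFAP2A, a factor of neural crest, epidermis and amnion, was at 235 CPM (iPS) against 7.9, 11 and 3.61 CPM (3 ES lines), a ratio of 21.4 (adjusted p 0.0507, edgeR). BRINP3, a gene of the nervous system, was at 198 CPM in the iPS library, where the ES lines had 1.58, 6.15 and 4.0 CPM, a ratio of 32.2 (adjusted p 0.052, edgeR). None of the 3 passed the threshold of 0.05, and the fibroblast library held at most 1.97 CPM of any of them. NTNG2, a membrane-anchored netrin, was at 15.9 CPM against 0.67, 0.334 and 0.709 CPM, and ZBTB20, a zinc finger repressor, at 32.6 CPM against 1.1, 0.306 and 1.42 CPM. GDNF, a growth factor for neurons, kidney buds and spermatogonia, was at 6.59 CPM in the iPS library and 0.406, 0.362 and 0.252 CPM in the 3 ES lines. ART3, of the ADP-ribosyltransferase family, was at 15.9 CPM against 0.305, 0.973 and 0.137 CPM.

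Neural crest genes lay on both sides of the ES range. Of 12 tested members of the neural crest and melanocyte list, 4 lay above the ES range and 5 below (33.3% and 41.7%, against 26.5% and 31.5% of all genes), 3 of them clearly above (25%, against 6.47%) and 2 clearly below (16.7%, against 2.65%). The median log2 fold change was -0.35, or -0.13 over the 11 genes with a count or a usable bound. MITF, the master factor of melanocytes, was the other gene clearly above, at 13.9 CPM in the iPS cells against 3.37, 4.12 and 5.44 CPM in the 3 ES lines, and was no longer clearly above after thinning. EDNRB, the endothelin receptor of migrating crest cells, had 0 counts in the iPS library against 5.32, 6.7 and 5.51 CPM, at least 10.5-fold lower than the lowest ES line with the iPS library set to 3 counts. PMEL, a structural protein of pigment granules, was at 9.64 CPM (iPS) against 20.4, 29.3 and 35.4 CPM (3 ES lines).

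**Figure D2:**
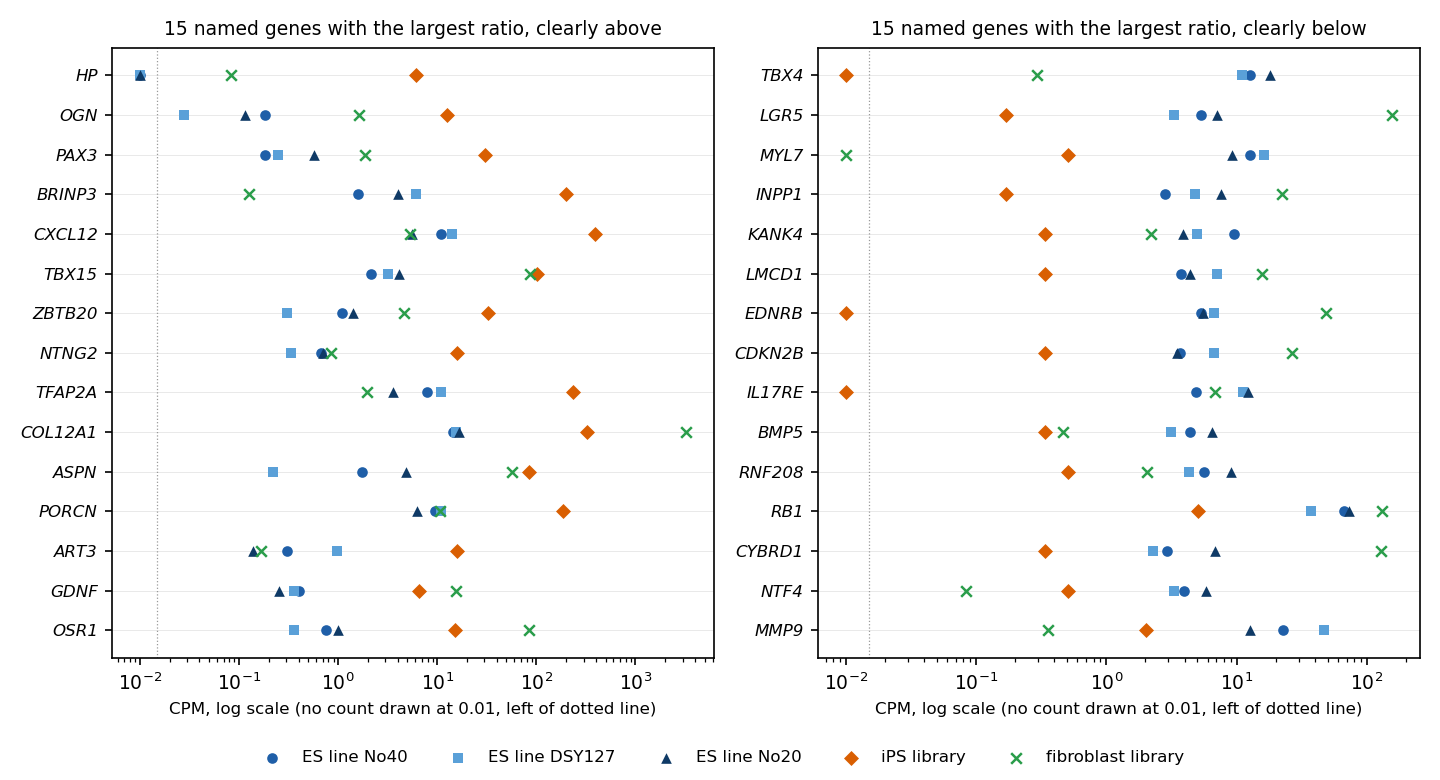
CPM on a log scale (x axis) of the 15 named genes with the largest ratio to the nearest ES line, clearly above (left) and clearly below (right), 1 point per library and gene. A library with no count is drawn at 0.01, left of the dotted line. The iPS diamond lies to the right of all 3 ES points for every gene on the left, and to the left of them for every gene on the right, where TBX4, EDNRB and IL17RE had no count.

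Transcription factors of mesenchyme stood out among the gene lists. The lists were chosen with earlier results of these data known, so their shares describe these libraries only. Of 49 listed, 22 were tested, and 13 of these lay above the ES range and 5 below. Clearly above were 11 (50.0%, against 6.47% of all genes) and clearly below 0. The list held 2 of the called genes, TBX15 and PRRX1. Its median log2 fold change was 1.68, or 2.12 over the 18 factors that allow a bound where the iPS library had 0 counts (5 factors had), against -0.11 and -0.07 over all genes tested. Summed over the list, the iPS library had 1645 CPM (95% interval 1612 to 1678) and the ES lines 249, 223 and 343 CPM, with 1767 CPM in the fibroblast library. The same number, 11, were clearly above when every library was thinned to the iPS total.

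ZEB2, a repressor of CDH1 in epithelial-to-mesenchymal transition, was at 415 CPM in the iPS library, where the ES lines had 35.5, 31.3 and 56.9 CPM. ZEB1, its close relative, was at 50.4 CPM against 6.83, 4.45 and 18.1 CPM, although CDH1 itself lay within the ES range as given above. EBF1, a factor of B cells and of fat and stromal progenitors, was at 126 CPM in the iPS library and 4.55, 2.67 and 9.35 CPM in the 3 ES lines, a ratio of 13.5 to the highest ES line. For ZEB2 and EBF1, as for PRRX1, the iPS value exceeded the fibroblast level, which was 164 CPM and 32.6 CPM. OSR1, an odd-skipped factor of early kidney and limb connective tissue, was at 15.2 CPM in the iPS cells against 0.752, 0.362 and 1.01 CPM in the 3 ES lines, and OSR2, its paralogue, at 4.06 CPM against 0.284, 0.195 and 0.229 CPM. RUNX2, the master factor of bone, was at 20.6 CPM (iPS) against 2.05, 1.75 and 2.65 CPM (3 ES lines). TWIST2 was at 70.7 CPM against 8.53, 19 and 16.4 CPM, NR2F1 at 5.24 CPM against 1.77, 1.31 and 0.961 CPM, and TCF4 at 435 CPM against 142, 116 and 181 CPM. Other members did not share this pattern. SNAI2, another repressor of CDH1 and abundant in the fibroblasts at 177 CPM, was at 1.52 CPM in the iPS library, where the ES lines had 2.62, 4.45 and 7.14 CPM, below all 3 ES lines. DLX5, MSX1, MEOX2, TBX5 and EBF2 had 0 counts in the iPS library, where 3 counts are 0.507 CPM, and at most 1.7 CPM in any ES line.

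**Figure D3:**
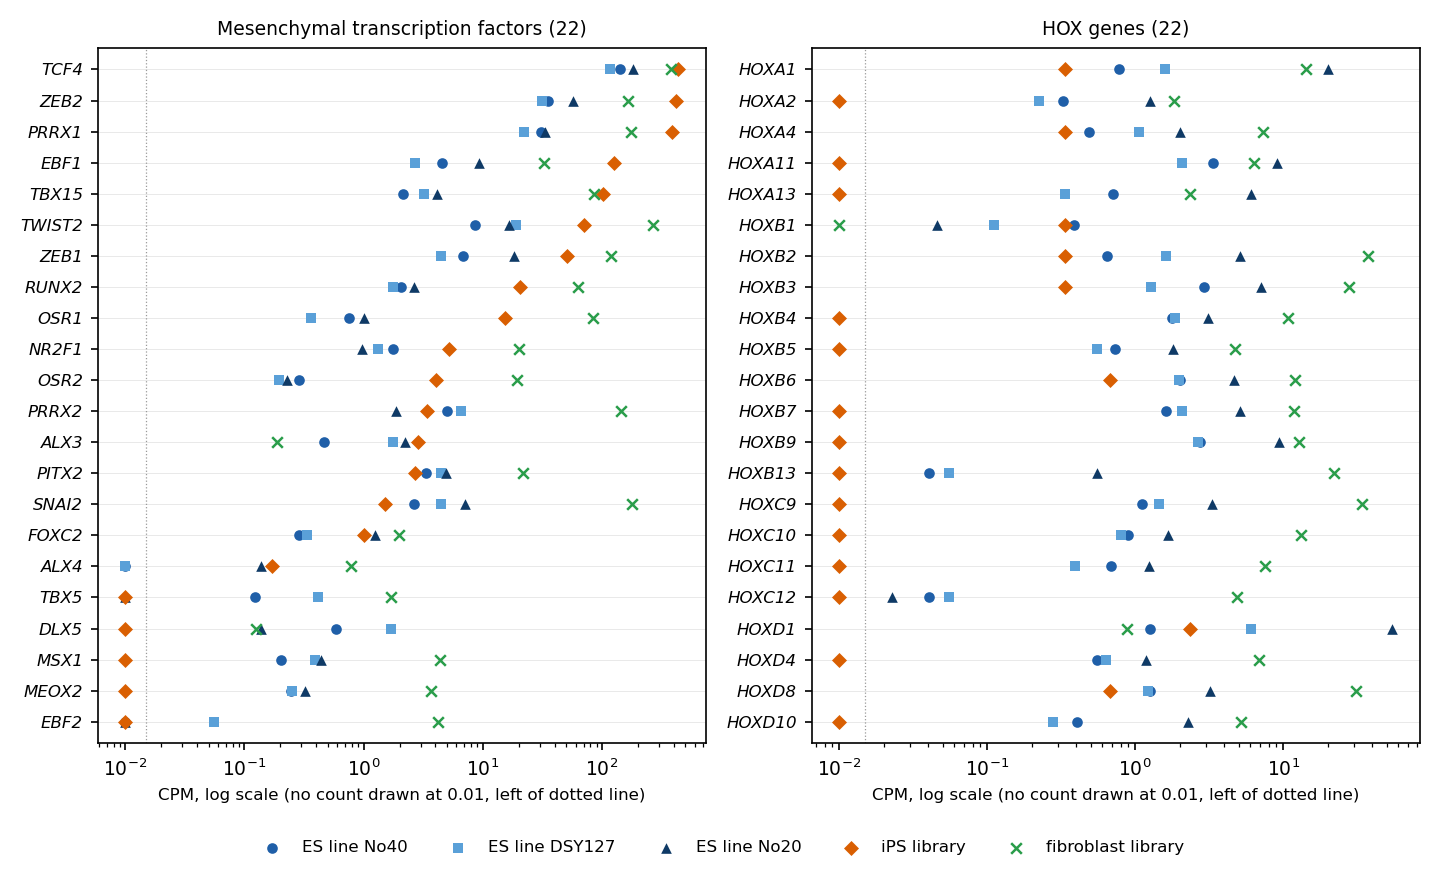
CPM on a log scale (x axis) of the 22 mesenchymal transcription factors (left, ordered by iPS level) and the 22 HOX genes tested (right), 1 point per library and gene, with libraries without a count drawn at 0.01. The iPS diamond lies above all ES points for 13 mesenchymal factors and for 0 HOX genes, and 14 HOX genes had no count in the iPS library.

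The HOX family, whose members give cells an address between head and tail, went the other way. Of 52 listed, 22 were tested, and 20 of these lay below all 3 ES lines, 2 within and 0 above. Clearly below were 8 (36.4%, against 2.65% of all genes), and 6 after thinning. With the iPS depth, 14 had 0 counts, so the depth limits what can be said of each gene. The fitted median log2 fold change was -7.65, which rests on these zeros, and -2.02 over the 20 genes that allow a bound at 3 counts. Summed over the 22 genes the iPS library held 5.41 CPM (95% interval 3.70 to 7.64), the ES lines 24.8, 28.3 and 143 CPM and the fibroblast library 276 CPM. Line No20 was the highest ES line, and the iPS sum lay below the lowest, No40.

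HOXB9 had 0 counts in the iPS library against 2.74, 2.64 and 9.38 CPM in the ES lines, at least 5.21-fold lower than the lowest of them. HOXA11 likewise had 0 counts against 3.37, 2.06 and 9.1 CPM, a bound of 4.06-fold, and HOXB4 0 counts against 1.79, 1.86 and 3.09 CPM, a bound of 3.53-fold. For HOXB3 there were 2 counts (0.338 CPM) against 2.91, 1.28 and 7.04 CPM, a ratio of 3.78 whose interval (0.99 to 32.2) includes 1. HOXD1, one of the 2 genes within the range, was at 2.37 CPM in the iPS library and 1.26, 6.06 and 54.5 CPM in the 3 ES lines. HOX genes share sequence, and the sources used here do not say how reads with several matches were counted, so single members are less certain than the sum. HOX expression was also far below that of the fibroblasts: HOXC9, for example, had 0 counts in the iPS library and 34.2 CPM in the fibroblasts.

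Collagens as a family lay above or below the ES range about as often as all genes did, although several fibrillar members were far above. Of 30 tested, 7 lay above and 11 below (23.3% and 36.7%, against 26.5% and 31.5% of all genes). Clearly above were 5 (16.7%, against 6.47%) and clearly below 1 (3.33%, against 2.65%), and the median log2 fold change was -0.40, against -0.11. With 1 ES line left out the collagens clearly below numbered 3 without No40, 3 without DSY127 and 2 without No20. Besides COL1A2 and COL12A1, the genes clearly above were COL3A1, COL5A2 and COL1A1. COL3A1, a collagen of vessels and skin, was at 1684 CPM in the iPS cells against 241, 21.9 and 62.7 CPM in the 3 ES lines. COL5A2, a fibril-nucleating collagen encoded next to it, was at 809.9 CPM (iPS) against 132, 43.8 and 93.8 CPM (3 ES lines). COL1A1, the partner chain of COL1A2, has coordinates on chromosome X here, so its symbol match or gene model is uncertain. It was at 4922 CPM in the iPS library, where the ES lines had 1214, 518 and 854 CPM, 4.06 times the highest ES line. The adjusted p-values of these 3 were 0.255, 0.0932 and 0.105 in edgeR, so only the 2 named earlier passed. COL7A1, the anchoring collagen of skin, was clearly below, at 13.5 CPM in the iPS library and 67.3, 55.3 and 97.4 CPM in the 3 ES lines.

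Among 46 matrix glycoproteins and proteoglycans, 14 lay above and 17 below (30.4% and 37.0%, against 26.5% and 31.5% of all genes). Clearly above were 7 (15.2%, against 6.47%) and clearly below 3 (6.52%, against 2.65%), or 6 without DSY127. MFAP4, a microfibril protein, was at 22.8 CPM in the iPS cells against 0.325, 0.167 and 1.67 CPM in the 3 ES lines, and EFEMP2, a fibulin needed for elastic fibres, at 85.2 CPM against 6.79, 4.56 and 13.1 CPM. TGFBI, an adhesion protein induced by TGF beta, was at 5.75 CPM (iPS) against 62.8, 18.7 and 133 CPM (3 ES lines), and LAMB1, a laminin chain of basement membrane, at 135 CPM against 317, 271 and 336 CPM. Of 39 remodelling enzymes, 5 were clearly above (12.8%) and 2 clearly below (5.13%), the latter rising to 5 without No40 and 4 without DSY127. FAP, a serine protease of activated fibroblasts, was at 13.7 CPM in the iPS library, where the ES lines had 0.163, 0.278 and 1.33 CPM. P4HA3, a collagen prolyl hydroxylase subunit, was at 9.8 CPM against 0.833, 0.667 and 1.21 CPM. MMP16, a membrane-bound metalloproteinase, was at 17.6 CPM against 4.57, 2.48 and 2.93 CPM. MMP9, a gelatinase, was clearly below, at 2.03 CPM in the iPS library and 22.7, 46.8 and 12.7 CPM in the 3 ES lines. A separate list held 32 tested fibroblast surface and stromal genes, of which 5 lay above and 13 below (15.6% and 40.6%). Clearly above were 4 (12.5%) and clearly below 3 (9.38%). The median log2 fold change was -0.66, or -0.57 over the 31 genes with a count or a usable bound. In this list DDR2, a collagen receptor, was at 36 CPM in the iPS cells against 5.69, 2.78 and 6.38 CPM in the 3 ES lines. CD44, the hyaluronan receptor, was at 8.62 CPM against 25.3, 62.5 and 29.3 CPM.

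Fibroblast markers as a whole were examined beside these genes. Of 27 listed markers 22 were tested, and 9 lay above the ES range, 8 below and 5 within, with 8 clearly above (36.4%, against 6.47% of all genes) and 1 clearly below (4.55%, against 2.65%). Their summed level was 15187 CPM in the iPS library, 6873, 4911 and 5669.6 CPM in the 3 ES lines, with 109781 CPM for the fibroblasts, and none was at 0. MXRA5, a secreted matrix protein, was at 2.7 CPM (iPS) against 7.07, 8.26 and 6.04 CPM (3 ES lines), below all 3 ES lines and 0.0915% of the fibroblast level of 2956 CPM. DCN, the proteoglycan decorin, was at 6.59 CPM in the iPS library, where the ES lines had 9.39, 13.2 and 11 CPM, 1.04% of the fibroblast level, and SNAI2 stood at 0.86% of it. By contrast the 8 markers clearly above the ES lines stood at 9.86% to 224% of the fibroblast level, with a median of 24.2%. VIM, the intermediate filament of mesenchymal cells, was at 560.0 CPM in the iPS library and 429, 448 and 1240.2 CPM in the 3 ES lines, within the ES range and 5.18% of the fibroblast level. FN1 was at 1907 CPM against 3364, 2666 and 1985 CPM, POSTN at 73.9 CPM against 98.6, 71.6 and 51.5 CPM, and PDGFRA at 25.2 CPM against 27.3, 30.6 and 60.7 CPM. The 8 markers clearly above were COL1A1, COL1A2, COL3A1, COL5A2, COL12A1, PRRX1, TWIST2 and FAP. All are also members of the collagen, mesenchymal factor or matrix remodelling lists, so the share clearly above repeats those results. Of the summed iPS level, COL1A1, COL1A2 and COL3A1 gave 4922, 3447 and 1684 CPM.

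**Figure D4:**
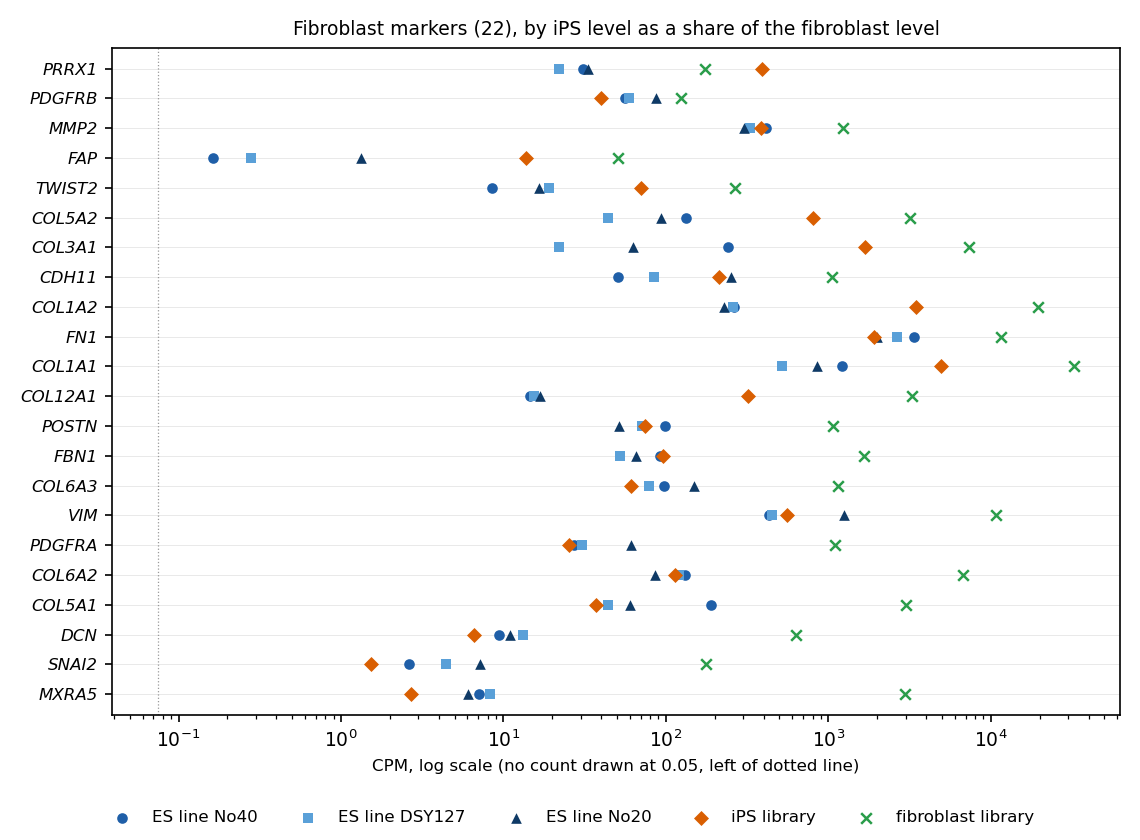
CPM on a log scale (x axis) of the 22 fibroblast markers tested, 1 point per library and gene, ordered from the highest to the lowest iPS level as a share of the fibroblast level. PRRX1 heads the order, above the fibroblast level, and MXRA5 closes it at 0.0915% of that level, below all 3 ES lines.

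The genes clearly outside the range were also set against the fibroblast library. The fibroblast library lay above all 3 ES lines for 400 of the 1129 (35.4%), the same share as among all genes tested (35.4%). For the 462 genes clearly below it was 198 (42.9%), and 57 of the 462 had 0 counts in the iPS library. The iPS level itself exceeded the fibroblast level for 994 of the genes clearly above (88.0%), against 50.7% of all genes tested. It did so for 94 of those clearly below (20.3%) and for 16 of the called genes (84.2%). Genes clearly above or called were selected for a high iPS level, so part of their share follows from the selection.

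Signalling genes lay on both sides of the ES range. Of 33 tested genes of TGF beta and BMP signalling, 8 lay above and 8 below (24.2% each, against 26.5% and 31.5% of all genes). Clearly above were 5 (15.2%, against 6.47%), or 3 with libraries scaled by total counts alone and 3 without the filter on low counts, and clearly below 2 (6.06%, against 2.65%). INHBA, which encodes the subunit of activin A, was at 318 CPM in the iPS cells against 54, 25.5 and 54.5 CPM in the 3 ES lines, and ACVR2A, a receptor for activin, at 113 CPM (iPS) against 21.4, 22.2 and 31.2 CPM (3 ES lines). The receptor BMPR2 was at 123 CPM against 59.9, 34.9 and 33.3 CPM, TGFB3 at 29.9 CPM against 11.6, 7.73 and 11.2 CPM, and the BMP antagonist NOG at 12.5 CPM against 2.89, 5.84 and 6.22 CPM. BMP5, a ligand, had 2 counts (0.338 CPM) against 4.41, 3.14 and 6.43 CPM, a ratio of 9.3 (95% interval 2.51 to 77.7). BAMBI, a decoy receptor, was at 6.76 CPM in the iPS library, where the ES lines had 22.8, 36.8 and 17.4 CPM.

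Of 40 tested WNT pathway genes, 11 lay above and 9 below (27.5% and 22.5%, against 26.5% and 31.5% of all genes), and the median log2 fold change was 0.03, against -0.11. Clearly above were 2 (5%, against 6.47%), or 4 without DSY127 and 5 without No20. Clearly below were 4 (10%, against 2.65%), or 8 without No40 and 7 without DSY127. PORCN is described above. RSPO2, a secreted enhancer of WNT signalling, was at 6.93 CPM in the iPS library and 0.203, 0 and 0.64 CPM in the 3 ES lines. Its receptor LGR5, a marker of intestinal and other stem cells, had 1 count (0.169 CPM) against 5.32, 3.31 and 7.11 CPM, a ratio of 19.6 (95% interval 3.45 to 779.7). The feedback inhibitor NKD1 had 4 counts (0.676 CPM) against 3.05, 3.09 and 9.29 CPM, and the coreceptor LRP5 was at 68.8 CPM against 155, 240.1 and 168 CPM. DKK4, a secreted antagonist, had 0 counts against 1.06, 0.667 and 18.9 CPM, a bound of 1.32-fold. Growth factor and receptor tyrosine kinase genes lay outside about as often as all genes did. Of 33 tested, 9 lay above and 12 below (27.3% and 36.4%). Clearly above were 2 (6.06%, against 6.47%) and clearly below 1 (3.03%, against 2.65%). HGF was at 5.41 CPM against 0.325, 0.278 and 0.732 CPM and KITLG, the ligand of KIT, at 7.1 CPM against 0.711, 0.973 and 1.85 CPM. PDGFB, with 5 counts, was at 0.845 CPM against 2.46, 5.65 and 15.9 CPM.

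The genes furthest below the ES range were selected by their ratio to the lowest ES line and have varied roles. TBX4 (chromosome 5, 85477087 to 85504890), a T-box factor of hindlimb and lung mesenchyme, had 0 counts in the iPS library against 12.7, 11 and 18.2 CPM, at least 21.8-fold lower than the lowest ES line. MYL7, the atrial myosin light chain, had 3 counts (0.507 CPM) against 12.7, 16.1 and 9.29 CPM, a ratio of 18.3 (95% interval 6.22 to 89.2). INPP1, a phosphatase of inositol phosphates, had 1 count against 2.84, 4.81 and 7.64 CPM, a ratio of 16.8 (95% interval 2.97 to 669). These genes were expressed in all 3 ES lines and close to absent in the iPS library at its depth. KANK4 and LMCD1, with 2 counts each, stood against 9.61, 4.95 and 3.91 CPM and 3.74, 7.09 and 4.39 CPM. The ratio to the lowest ES line was 11.6 for KANK4 (95% interval 3.15 to 96.3) and 11.1 for LMCD1 (95% interval 3.02 to 92). IL17RE, a receptor for an epithelial interleukin, had 0 counts against 4.88, 11.2 and 12.3 CPM. RNF208, CYBRD1 and NTF4 completed the genes selected by ratio, with 3, 2 and 3 counts in the iPS library.

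The cell cycle list held 2 genes clearly below among 41 tested (4.88%, against 2.65% of all genes), or 5 without DSY127. RB1, the retinoblastoma protein that restrains entry into S phase, had 30 counts (5.07 CPM) against 66.6, 37.4 and 72.8 CPM, 7.38-fold below the lowest ES line (95% interval 5.14 to 11) with an adjusted p of 0.101 in edgeR. CDKN2B, an inhibitor of the kinases that inactivate RB1, had 2 counts against 3.7, 6.76 and 3.48 CPM, a ratio of 10.3 (95% interval 2.8 to 85.7). The other 39 cell cycle genes were not clearly outside the ES range. Of all 41, 17 lay below all 3 ES lines and 2 above (41.5% and 4.88%, against 31.5% and 26.5% of all genes). Their median log2 fold change was -0.33. ANKRD1, a target of the YAP coactivator, was at 1.69 CPM in the iPS cells against 10.4, 41.4 and 34.8 CPM in the 3 ES lines. It was the only one of 15 tested YAP and TEAD targets clearly outside (6.67%, against 2.65% of all genes clearly below). Without DSY127, 2 were clearly below. Of the 15 targets, 10 lay below all 3 ES lines and 2 above (66.7% and 13.3%, against 31.5% and 26.5%). Their median log2 fold change was -0.44, against -0.11 over all genes. Of 28 tested contractile and cytoskeletal genes, 6 lay above and 14 below (21.4% and 50%). Clearly above were 3 (10.7%, against 6.47% of all genes) and clearly below 2 (7.14%, against 2.65%). In this list TAGLN, a smooth-muscle actin-binding protein, was at 79.1 CPM (iPS) against 214, 931 and 663 CPM (3 ES lines). S100A6, a calcium-binding protein, was clearly above at 491 CPM in the iPS library, where the ES lines had 23.8, 75 and 109 CPM.

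Lineage genes of endoderm lay low. Of 17 tested, 10 lay below the ES range, 6 within and 1 above, with 6 clearly below (35.3%, against 2.65% of all genes) and a median log2 fold change of -0.78. GATA6, a founder factor of primitive endoderm, was at 4.73 CPM in the iPS library and 16.4, 38.3 and 89.9 CPM in the 3 ES lines. CER1, a secreted antagonist of Nodal, BMP and WNT made by early endoderm, was at 5.41 CPM in the iPS cells against 71.5, 23.8 and 393 CPM in the 3 ES lines. EOMES was at 2.54 CPM against 5.95, 11.7 and 67.1 CPM, FOXA2 at 2.7 CPM against 5.71, 8.48 and 11.1 CPM, and CXCR4, the receptor of CXCL12, at 4.4 CPM against 10.7, 10.5 and 35.1 CPM. For GATA6, CER1, EOMES, FOXA2 and CXCR4 line No20 was the highest of the ES lines. Of 9 mesoderm genes 6 lay below (66.7%, against 31.5% of all genes) and 0 clearly so. Of 17 neural genes 3 lay above and 6 below (17.6% and 35.3%), with 1 clearly above (5.88%, against 6.47% of all genes) and 2 clearly below (11.8%). Their median log2 fold change was -0.58, or -0.22 over the 15 genes with a count or a usable bound. The gene clearly above was PAX6, a factor of eye and forebrain, at 5.41 CPM (iPS) against 0.61, 0.918 and 2.1 CPM (3 ES lines).

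Germ cell genes lay on the high side. Of 19 tested, 14 lay above the ES range (73.7%, against 26.5% of all genes), 4 within and 1 below, with 6 clearly above (31.6%, against 6.47%) and a median log2 fold change of 0.85. DDX4, the germ cell RNA helicase also called VASA, was at 26.5 CPM in the iPS library, where the ES lines had 1.1, 12.7 and 0.0457 CPM. SYCP1, which joins paired chromosomes in meiosis, was at 55.4 CPM in the iPS library and 10, 27.1 and 0.412 CPM in the 3 ES lines, and MAEL, which acts in silencing of transposons by piRNA, at 47.5 CPM in the iPS cells against 10.8, 17.8 and 1.19 CPM in the 3 ES lines. For all 3 the order was iPS, DSY127, No40 and No20, so the ES lines were spread widely. After thinning 3 rather than 6 members were clearly above. BOLL and SYCP2, also clearly above in the main analysis, were not tested where at least 1 CPM was required in 3 libraries. Of 10 tested genes of the naive state, 5 lay above (50%, against 26.5% of all genes) and 0 below. Clearly above were 2 (20%, against 6.47%), or 4 without DSY127 and 1 where at least 1 CPM was required in 3 libraries. KLF17, a factor of the early primate embryo, was at 23.5 CPM (iPS) against 1.83, 11.2 and 0 CPM (3 ES lines), and ARGFX, a homeobox gene of the same stage, at 4.4 CPM in the iPS library, where the ES lines had 0.0813, 0.222 and 0.0457 CPM. Of 9 primed-state genes, 4 lay below (44.4%, against 31.5%) and 1 above.

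Markers of other cell types were read in the same way. Of 15 tested endothelial genes 1 lay above and 7 below (6.67% and 46.7%, against 26.5% and 31.5% of all genes). VWF, the clotting protein of vessel walls, was the 1 clearly below (6.67%, against 2.65% of all genes, and 2 without No40 or DSY127). It was at 3.72 CPM in the iPS library and 9.94, 15.4 and 11.5 CPM in the 3 ES lines. RUNX1, a factor of blood formation, was the 1 of 6 tested blood genes clearly above (16.7%, against 6.47% of all genes, and 2 without No20). It was at 25.2 CPM in the iPS cells against 2.91, 3.14 and 6.93 CPM in the 3 ES lines. Smooth-muscle myosin MYH11 was at 8.79 CPM (iPS) against 1.63, 1.45 and 1.44 CPM (3 ES lines), while 0 of 13 genes of a separate muscle list were clearly outside. Of 14 trophoblast and amnion genes 2 lay above and 6 below (14.3% and 42.9%), and 4 had 0 counts in the iPS library. The median log2 fold change was -1.20, or -1.12 over the 12 genes with a count or a usable bound. TFAP2A was the 1 clearly above (7.14%, or 2 genes without DSY127), and EOMES, which endoderm shares, the 1 clearly below (7.14%, or 2 genes without No40 and 4 without No20). None of 5 keratinocyte genes was clearly outside. VEGFA, the vessel growth factor, was the 1 of 13 hypoxia genes clearly above (7.69%, near the 6.47% of all genes, and 2 without DSY127). It was at 87.2 CPM in the iPS library, where the ES lines had 28.9, 38.3 and 21.5 CPM. CA9, a carbonic anhydrase of the same list, was the 1 clearly below (7.69%, against 2.65%), at 1.18 CPM against 3.62, 2.61 and 4.09 CPM.

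Genes of DNA methylation and imprinting were read next, since reprogramming resets DNA methylation. Of 16 genes of DNA methylation, 2 were clearly above (12.5%, against 6.47% of all genes) and 1 clearly below (6.25%, against 2.65%). UHRF2, a reader of modified DNA, was clearly above at 139.8 CPM in the iPS library and 63.9, 39.7 and 64.1 CPM in the 3 ES lines. CTCFL, a testis paralogue of the insulator protein CTCF, was the other gene clearly above, with 18 counts, at 3.04 CPM in the iPS cells against 0.711, 0.862 and 0.0457 CPM in the 3 ES lines. DNMT1, the maintenance methyltransferase, was clearly below at 11 CPM (iPS) against 28.7, 37.4 and 73 CPM (3 ES lines). Of 24 tested imprinted genes 14 lay below and 5 above (58.3% and 20.8%, against 31.5% and 26.5%). Their median log2 fold change was -0.85, or -0.72 over the 23 genes with a count or a usable bound. Clearly above were 0 and clearly below 2 (8.33%). Without DSY127 and without No20 the imprinted genes clearly below numbered 5 and 4. With all 3 lines the 2 were IGF2, a fetal growth factor, at 2.54 CPM in the iPS library, where the ES lines had 9.02, 11.2 and 11.9 CPM, and IGF2R, the receptor that clears it, at 103 CPM in the iPS library and 255, 232 and 221 CPM in the 3 ES lines. IGF2R was no longer clearly below after thinning.

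Genes that respond to foreign RNA or to stress were examined, since the reprogramming was RNA-based per the series title. Of 32 tested genes of RNA sensing and interferon response, 2 lay above and 13 below (6.25% and 40.6%, against 26.5% and 31.5% of all genes). Their median log2 fold change was -0.76, or -0.64 over the 29 genes with a count or a usable bound. Clearly above were 0 and clearly below 1 (3.12%, against 2.65%), or 2 without No40 and 4 without DSY127. The 1 gene was OAS2, an antiviral synthetase, at 2.03 CPM in the iPS cells against 11, 5.73 and 15.4 CPM in the 3 ES lines, which was not clearly below after thinning. TAPBP, which loads peptides onto MHC class I, was the 1 of 13 antigen presentation genes clearly below (7.69%, against 2.65% of all genes), and 0 were clearly above. It was at 2.54 CPM (iPS) against 10.1, 6.81 and 16 CPM (3 ES lines). Of 12 immediate early genes 8 lay above (66.7%, against 26.5% of all genes) and 3 below (25%, against 31.5%). Clearly above were 3 (25%, against 6.47%) and clearly below 1, MYC (8.33%, against 2.65%), or 2 without No40 or DSY127. FOSB was at 43.4 CPM in the iPS library, where the ES lines had 6.58, 1.36 and 6.72 CPM, NR4A2 at 29.4 CPM against 2.5, 6.62 and 3.09 CPM and FOS at 81.3 CPM against 29.3, 7.29 and 27 CPM. VLDLR, a lipoprotein receptor, was the 1 of 19 genes of the integrated stress and unfolded protein responses clearly above (5.26%, against 6.47% of all genes). It was at 45.5 CPM in the iPS library and 22.6, 18.4 and 15.4 CPM in the 3 ES lines. Its ratio fell under 2 when libraries were scaled by total counts alone.

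Metabolic and ribosomal genes had 0 members clearly outside the range. Of 20 cholesterol synthesis genes 12 lay below the ES range (60%, against 31.5% of all genes) and 0 above, with a median log2 fold change of -0.68, against -0.11. Of 18 glycolytic genes 9 lay below (50%) and 0 above, with a median of -0.40. Oxidative phosphorylation genes lay above in 6 and below in 2 of 23 (26.1% and 8.70%), with a median of -0.07. Ribosomal protein genes lay above in 13 and below in 7 of 37 (35.1% and 18.9%, against 26.5% and 31.5%), with a median of 0.14. None of these lists had a member that passed the edgeR test.

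**Figure D5:**
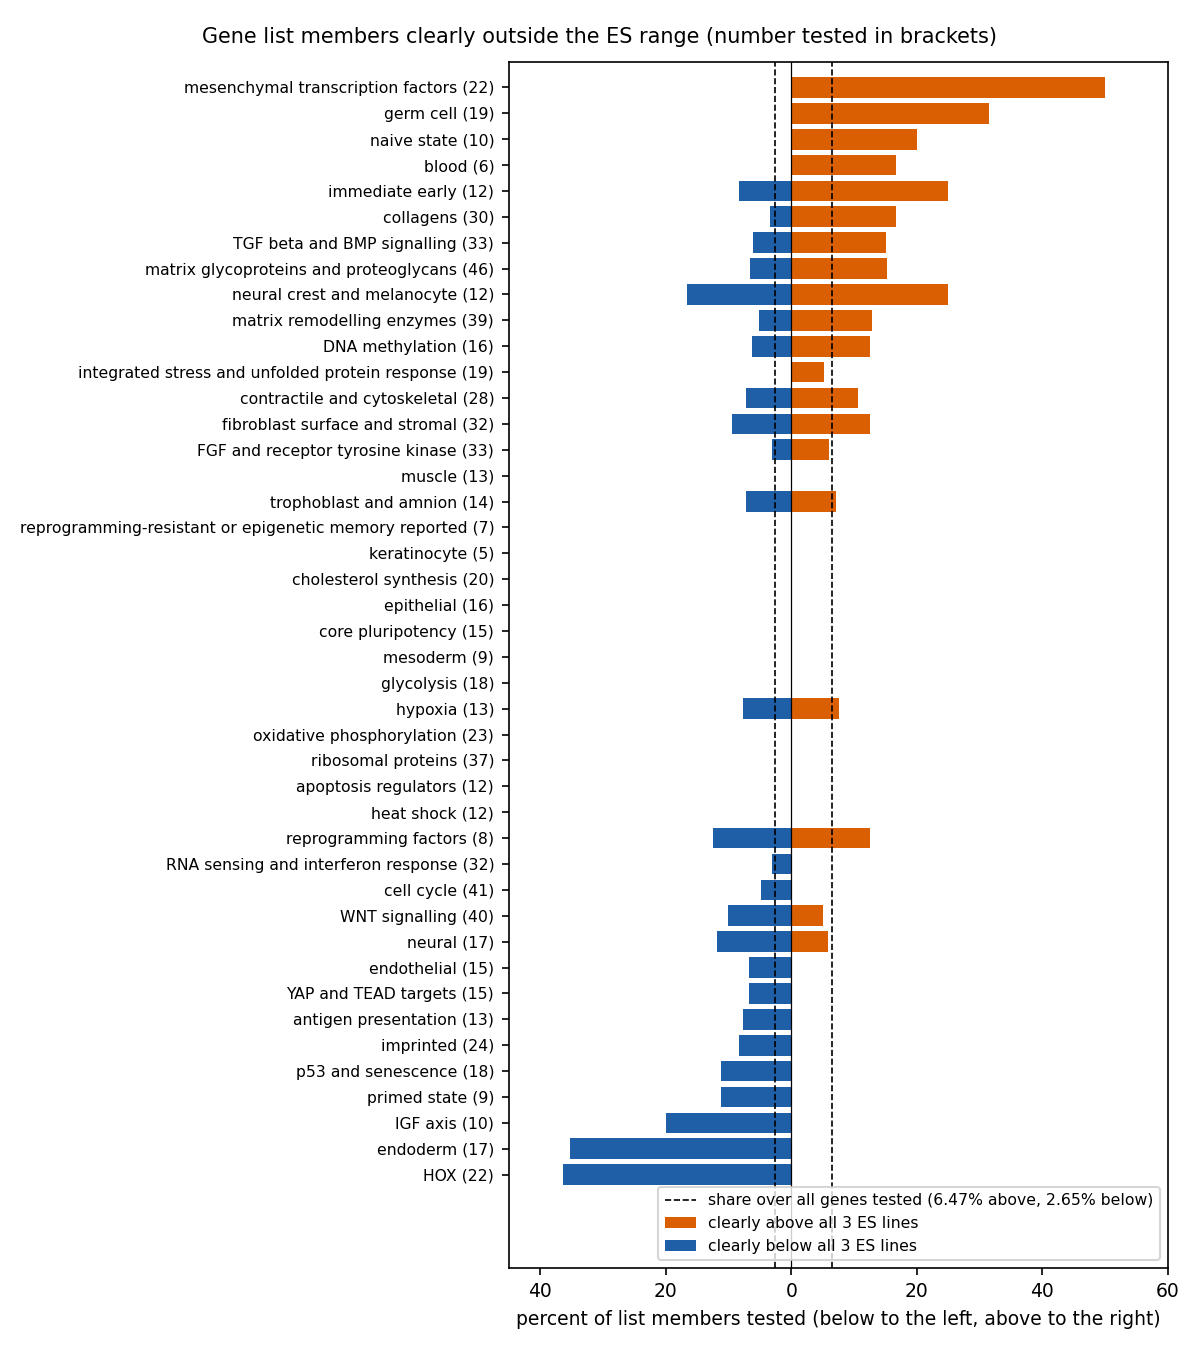
Percent of the tested members of each gene list that were clearly above (bars to the right) or clearly below (bars to the left) all 3 ES lines, with the number tested in brackets and dashed lines at the shares over all genes, 6.47% and 2.65%. Mesenchymal transcription factors reach 50.0% above, and HOX and endoderm genes reach 36.4% and 35.3% below.

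The genes clearly above differed from all genes in annotation and length, which the comparison did not use. Among the 1129 genes clearly above, 38.8% had a symbol, against 65.7% of all genes tested, and the median gene model was 1328 bases long against 2073.5 bases. By 5 classes of length with equal numbers of genes, among genes with a mean of at least 1 CPM over the 4 libraries, 10.7% of the shortest (54 to 1241 bases) were clearly above, against 3.42% to 4.95% in the other classes. Among genes with a mean of at least 10 CPM, where classes span other lengths, it was 5.43% of the shortest (57 to 1430 bases) against 2.64% to 3.42%. The 462 genes clearly below did not share this, with 66.2% carrying a symbol, a median length of 2326.5 bases and 2.56% of the shortest class clearly below, against 2.89% to 3.57% in the others. A gene could enter the analysis on its iPS level alone. Where at least 1 CPM was required in 3 libraries, 638 genes were clearly above and 364 clearly below. Named genes clearly above that were then not tested include HP, OGN, PAX3, GLIS1 and ARGFX. Level in the ES lines, which the comparison did use, differed too. The median ES mean was 0.987 CPM for genes clearly above, against 13.8 CPM over all tested. In the lowest of 5 ES-level classes (mean of at least 1 CPM), 15.9% were clearly above, against 1.75% to 4.74% in the others. The share over all genes, 6.47%, is not matched to level.

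Some genes outside the range were neighbours on a chromosome. A directly adjacent, non-overlapping tested gene was also clearly above for 182 of the 1129 (16.1%), and 11% of all genes had such a neighbour. For genes clearly below it was 47 of 462 (10.2%), and 4.78% of all genes. The pairs above included COL3A1 with COL5A2, ACVR2A with ZEB2, FAP with DPP4 and RSPO2 with ANGPT1, and the pairs below HOXB4 with HOXB3 and HOXC10 with HOXC9. By chromosome, the median difference between the iPS log2 CPM and the ES mean ranged from -0.21 on chromosome 9 to 0.06 on chromosome X, against -0.06 over all genes. These extremes moved when an ES line was left out. Line No20 differed from the ES mean by 0.24 on chromosome 9, and without No20 the iPS difference there was -0.08 against -0.09 over all genes, and chromosome 22 was lowest at -0.23. On chromosome X the difference was 0.14 without No40, 0.04 without DSY127 and 0.03 without No20.

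At the ratio of 2 that separates clear from other differences, SH3GLB1 (2.005) and UQCC2 (2.008) lay just inside and RCOR3 and APBB1IP (1.995 each) just outside among genes above. Among genes below, PGAP6 (2.005) and SEMA3A (2.007) lay just inside and INSYN2A (1.996) and PPM1N (1.993) just outside.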

How the data were processed

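Per the labels' protocols, total RNA for the 5 libraries was purified on RNeasy columns. Raw counts of reads for each gene, as whole numbers, are what the authors deposited. Tools named per the submitters' processing notes, without role or order, are featureCounts 1.5.2, STAR 2.5.3a and Trim Galore 0.4.0. Not given in the sources used here are the genome build, the strand setting and how reads with several matches or in overlapping genes were treated, so genes with near-identical copies and overlapping genes may share reads. Coordinates are those of the files, 1-based. COL1A1 is placed there on chromosome X, so its symbol match or gene model may be wrong and its coordinates are not given.

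Symbols matched 12660 of 30811 identifiers (41.1%) and 11464 of the 17462 genes tested. Group labels came from the cell type in the labels, and ES lines were numbered in accession order. The test used edgeR 4.0.16 in R 4.3.3 (filterByExpr on the 3 groups, TMM, estimateDisp, glmQLFit, glmQLFTest), in 1 fit of all 5 libraries. The residual degrees of freedom were 2, the prior degrees of freedom 4.72 and the common biological coefficient of variation 0.458. Adjusted p-values are Benjamini-Hochberg over all genes tested. The labels do not say that libraries came from separate cultures, and p-values measure only the spread between the ES lines. Log2 CPM used a prior count of 2. Folds against libraries without a count are bounds at 3 counts per library. Medians with bounds leave out genes with 0 iPS counts whose mean ES level did not exceed the level of 3 iPS counts. Alternatives were other scalings and filters, DESeq2 1.42.0, limma 3.58.1 (voom), each ES line left out, the fibroblast library left out, thinning to the iPS total, and a ratio of 4. The procedure was tested on simulated data.

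Named genes are those called; the 15 with the largest ratio to the nearest ES line in each direction with at least 5 CPM in the highest library; up to 4 per list by the same ratio; 12 genes listed for what they mark, such as POU5F1 and VIM; and others from the lists, to show their members. The comparison, its members and the gene lists were chosen with earlier results of these data known. The mitochondrially encoded list had 0 genes tested and is not analysed here, the histone list had 1, within the ES range, and no sequences were used here.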

Additional observations from a re-analysis of the deposited data

How the results depend on the processing

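The test was limited by 1 iPS library of low depth and 3 ES lines. Of 19 genes called higher and 0 lower, the counts became 198 and 6 without a filter on low counts, 349 and 67 with DESeq2, 5 and 0 with limma voom, and 136 and 4 with all libraries thinned to the iPS total. Leaving out 1 ES line at a time gave 0 to 256 higher and 0 to 12 lower, with 0 higher without No40, 41 without DSY127 and 256 without No20. All 19 genes remained called under RLE, upper-quartile and total-count scaling, without the filter, with DESeq2, after thinning, with the fibroblast library left out and without DSY127 or No20. With limma voom 5 of them remained, and with at least 1 CPM required in 3 libraries 18 of 18 tested. The cause of these differences was not tested.

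Genes clearly above numbered 638 when at least 1 CPM was required in 3 libraries and 581 at a ratio of 4, against 1129. Genes clearly below, 462 in the main analysis, numbered 143 at a ratio of 4, and 629 to 787 with 1 ES line left out, where a range of 2 lines is narrower (779 without No40, 787 without DSY127). Members of any list clearly below, 46 in the main analysis, numbered 58 to 81 with 1 line left out. List members passing the test, 6 in the main analysis, numbered 29 without the filter, 51 with DESeq2, 2 with voom, 24 after thinning and 0 to 39 with 1 line left out (0 without No40, 15 without DSY127, 39 without No20). After thinning 72.4% of the genes clearly above and 71.4% of those clearly below remained so. No fold change or named gene reversed direction among the alternatives run. Genes below the ES range outnumbered those above in the main analysis (5507 against 4633), but not after thinning (3874 against 3954). Small median differences of single chromosomes changed sign, as on chromosome 17 (-0.02, and 0.06 without No40), chromosome 4 (0.01, and -0.04 without No20) and chromosome 6 (0.02, and -0.01 without No20). Over all genes, the other scalings shifted the median by -0.04 to 0.04 (log2). No paired analysis was possible, because there was 1 iPS library and the labels link it to no ES line. The numbers of the ES lines follow accession order only.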

Other observations

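Several transcription regulators that belong to none of the lists above were also clearly above the ES lines, and were chosen after their values were seen. NFIA was at 139 CPM in the iPS cells against 18.3, 4.42 and 12.6 CPM in the 3 ES lines and NFIB at 239 CPM against 16.6, 20.3 and 37 CPM, so all 3 measured members of the nuclear factor I family, with NFIX, were clearly above. MEIS2, a homeobox cofactor of HOX proteins, was at 157 CPM (iPS) against 7.31, 6.2 and 13.9 CPM (3 ES lines). Its relatives differed less: MEIS1 was at 22.3 CPM against 9.43, 9.46 and 15.4 CPM, above the ES lines but not clearly, and MEIS3, at 16.2 CPM against 20.9, 15 and 4.44 CPM, lay within their range. TRPS1, a repressor of skeletal development, was at 70.5 CPM against 6.1, 3.75 and 10.1 CPM. NR3C1, the glucocorticoid receptor, was at 78.4 CPM against 7.82, 5.01 and 9.93 CPM. Adjusted p-values of NFIA, NFIB, MEIS2, TRPS1 and NR3C1 lay between 0.0559 and 0.12 in edgeR, so none passed the threshold.

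Other genes of varied function outside the lists, also chosen after their values were seen, lay on both sides of the ES range. S1PR1, a receptor for sphingosine phosphate, was at 53.2 CPM in the iPS library, where the ES lines had 1.69, 2.25 and 6.15 CPM, and ANGPT1, the ligand of the endothelial receptor TEK, at 26.5 CPM against 0.528, 0.584 and 1.85 CPM. DGAT2, which makes triglycerides, was at 63.2 CPM in the iPS library and 1.73, 4.78 and 0.457 CPM in the 3 ES lines. On the low side MATN3, a cartilage matrix protein, was at 3.38 CPM in the iPS cells against 17.8, 35.8 and 26.1 CPM in the 3 ES lines, and SLC40A1, the iron exporter ferroportin, at 1.18 CPM against 6.52, 19.3 and 8.62 CPM.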
